A study of Mus musculus with 2 samples.

Results

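Mature migratory dendritic cells, the dendritic cells that switch off antigen uptake, switch on the chemokine receptor CCR7 and walk out of a tissue towards its draining lymph node, were taken from single-cell RNA profiles of CD45+ cells of tumour-bearing mouse lung. The members were chosen by their measured RNA. A cell was included when it held at least 1 unique molecular identifier (UMI, the tag that marks 1 captured RNA molecule) of Fscn1 and of at least 2 further genes among Ccr7, Ccl22, Cacnb3, Socs2, Nudt17 and Zmynd15, and none of Cd3e, Cd79a or Cxcr2, which mark T cells, B cells and neutrophils. A seventh further gene of the rule, Il4i1, was not analysed here. The rule was met by 105 of 11905 cells, 41 of 5702 in the library named PBS and 64 of 6203 in the library named DT.

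Both libraries came from mice that carry a Cre recombinase driven by Scgb1a1, a gene of airway club cells, together with iDTR, by which Cre makes a cell sensitive to diphtheria toxin (Scgb1a1cre/iDTR). All mice received 150000 HKP1 lung tumour cells by tail vein, tamoxifen at 2 mg per 20 g on days 3 to 7, anti-PD-1 antibody at 250 µg on day 6, and radiotherapy of 4 Gy on each of 3 days, days 10 to 12. The DT group received diphtheria toxin at 600 ng per 20 g on days 8 and 9, which depletes club cells, and the PBS group received PBS. Lungs of 4 mice per group were taken 1 day after radiotherapy, or at 24 to 48 hours by another label, sorted for live CD45+ cells and profiled as 1 library per group by the 10x 3′ method. With 1 library per group there was no replicate and no test between groups. Each value is therefore given for both libraries, and each interval is an exact 95% interval that covers counting error only. No label ties a cell to a mouse. Cells with RNA of a Y-linked gene and none of Xist, called male, made up 27 of the PBS and 6 of the DT members, whereas cells with only Xist, called female, made up 4 and 32, so the sex of the animals and the group cannot be told apart.

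Conventional dendritic cells sample antigen in the tissue and, once activated, pass through a shared maturation programme that is largely independent of their lineage. In this programme fascin, the product of Fscn1, bundles actin into long dendrites, CCR7 steers the cell along the chemokines CCL19 and CCL21 into lymphatics, and NF-kB proteins drive costimulatory ligands and the chemokines CCL17 and CCL22, which attract T cells that carry CCR4. In tumours the same cells also carry checkpoint ligands such as PD-L1, and are known as mature dendritic cells enriched in immunoregulatory molecules.

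The 2 libraries held 31089434 UMIs (PBS) and 27896059 UMIs (DT), with medians of 3719 and 2909 UMIs per cell, and they shared 8 cell barcodes. The members were deeper than that. Their median was 12903 UMIs and 2993 genes per cell in PBS and 9031 UMIs and 2715 genes in DT. UMIs per member ranged from 701 to 28712 in PBS and from 324 to 26849 in DT. Summed over the members, 510946 UMIs stood behind the PBS values and 642339 behind the DT values, and expression is given as CPM, the UMIs of a gene scaled to a total of 1000000 summed UMIs. Mitochondrial transcripts made up 1.35% of the member UMIs in PBS and 1.54% in DT.

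The label was checked with 10 genes of mature dendritic cells that the rule did not use, namely Ccl17, Ccl5, Cd40, Relb, Traf1, Apol7c, Cd200, Il15ra, Serpinb6b and Tmem123. The median member held RNA of 8 of these genes in PBS and 7 in DT. The median of the other H2-Aa-positive myeloid cells, 808 cells in PBS and 930 in DT that carry the class II gene H2-Aa and myeloid genes and do not meet the rule, was 2 and 1. At least 3 of the 10 genes were found in 97.6% and 93.8% of the members, against 34.0% and 29.0% of the other myeloid cells. H2-Aa itself was found in 38 of 41 and 59 of 64 members. In both libraries the members thus held more of these 10 genes than the other myeloid cells did. The genes were chosen with earlier results of these data known, so they are not independent support for the label. In a resting dendritic cell gate described below, the list of 23 mature dendritic cell genes outside the rule summed to 17605 and 19862 CPM. In the members it summed to 32671 and 28114 CPM.

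**Figure D1:**
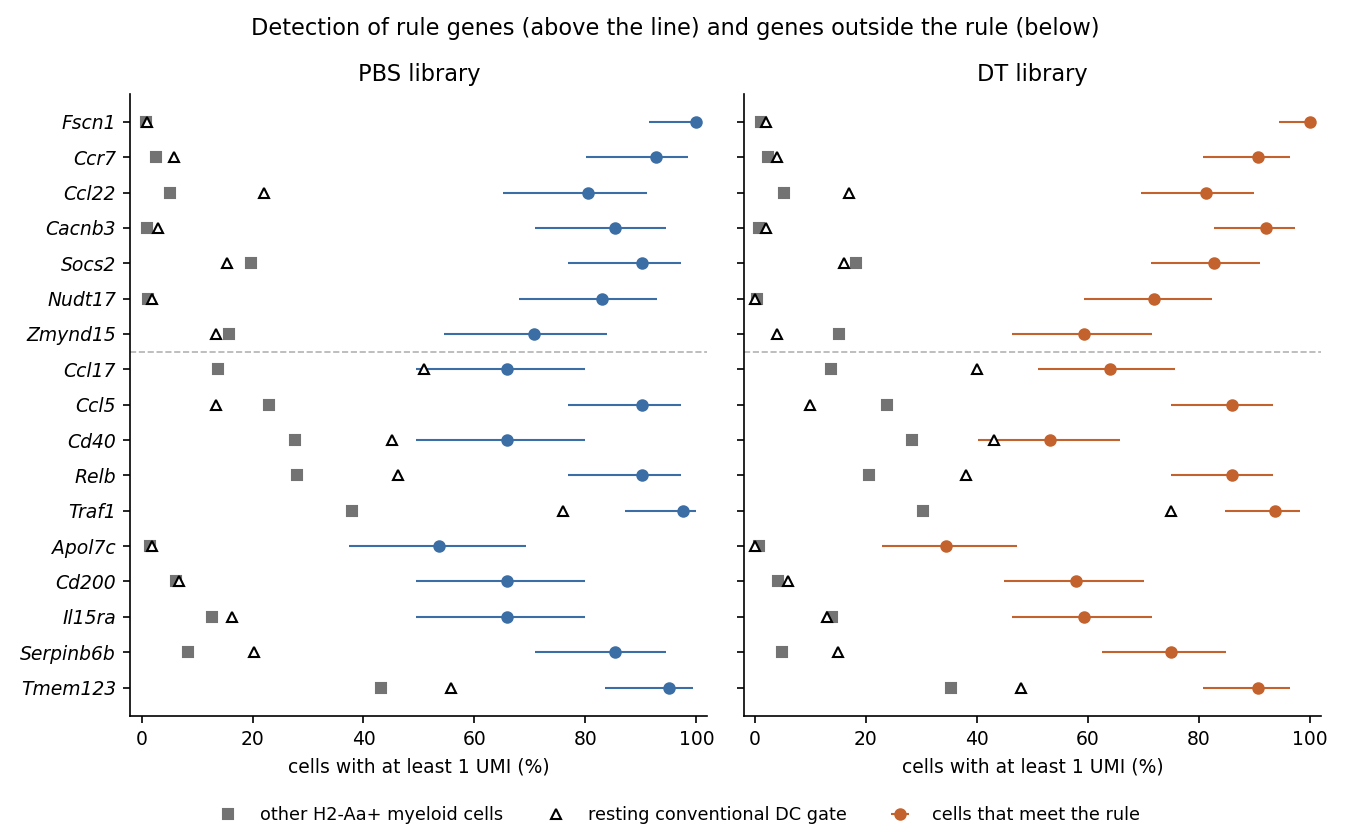
Percent of cells with at least 1 UMI of each gene (x axis), for the genes of the rule above the dashed line and 10 genes outside it below, in PBS members (blue) and DT members (orange) with exact 95% intervals, in other H2-Aa-positive myeloid cells (grey squares) and in a resting dendritic cell gate (open triangles). Ccr7, for example, was found in 92.7% and 90.6% of the members and in 2.6% and 2.37% of the other myeloid cells.

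The genes of the rule were not all equally selective outside the myeloid cells. Ccr7 was found in 33.8% and 38.4% of B cells and in 31.8% and 32.7% of T cells (PBS and DT), which also use this receptor to enter lymph nodes, so Ccr7 alone does not pick out the members. Ccl22 was found in 80.5% and 81.2% of the members and in at most 1.33% of B cells, T cells or neutrophils. Cacnb3, a calcium channel subunit, was found in 85.4% and 92.2% of the members and in 0.990% and 0.645% of the other myeloid cells. Of the cells with Fscn1, 94 in PBS and 138 in DT, 56 and 75 held at least 2 further genes, and 15 and 11 of these were left out for Cd3e, Cd79a or Cxcr2. Just inside the rule were 3 and 6 cells with exactly 2 further genes, with median depths of 18907 and 5073.5 UMIs. Just outside it were 8 and 14 cells with exactly 1, at 7028.5 and 6446 UMIs. Most members lay well inside, since 31 of the 41 and 43 of the 64 held 5 or 6 of the 6 genes.

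Some members also carried RNA of another lineage. At least 10 UMIs of C1qa, C1qb, C1qc and Lyz2 together, or at least 5 UMIs of Col1a1, Col3a1, Krt8, Krt18, S100a8, S100a9, Gzma and Nkg7 together, were found in 3 PBS and 9 DT members, a cutoff set after the data were seen. They held 13.8% and 21.3% of the member UMIs. Macrophage RNA was the most frequent kind, in 3 and 5 members, and keratin RNA was found in 0 and 2. Whether they are doublets was not tested, since no doublet caller was run. The counts of genes between DT and PBS, and the ratios of some single genes, are also given for the remaining 38 and 55 cells. Within the members as a whole, the 12 T cell genes summed to 7.83 CPM in PBS and 32.7 CPM in DT, from 0 to 1.07 and from 0 to 6.04 UMIs per 10000 in a cell, with Cd3d, Cd3g, Cd8b1, Bcl11b and Cd28 at 0 in both. The 18 macrophage genes summed to 1822 and 1921 CPM, from 0 to 231 and from 0 to 410 UMIs per 10000, with a median of 0 in both libraries and Marco and Ear1 at 0 in both.

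Mature migratory dendritic cells made up 0.719% of the PBS cells (interval 0.516% to 0.974%) and 1.03% of the DT cells (0.795% to 1.32%). The ratio of the shares was 1.43, and its interval of 0.955 to 2.18 included equality. Against H2-Aa-positive myeloid cells instead of all cells, the shares were 38 of 846 (4.49%) and 59 of 989 (5.97%), with a ratio of 1.33 (0.869 to 2.05). Without the members that carried RNA of another lineage the ratio over all cells was 1.33 (0.864 to 2.07). Within cells called female it was 1.51 (0.534 to 5.86, from 4 and 32 members). Within cells called male it was 0.606 (0.205 to 1.5, from 27 and 6 members), on the other side of 1. With a looser rule that asks for at least 1 further gene, the shares were 49 and 78 cells and the ratio 1.46 (1.01 to 2.14), whose interval excluded equality. Whether the interval included equality thus depended on the rule, although the 2 rules gave similar ratios, and the side of 1 depended on the cells counted. These intervals cover counting error only, so whether the share differed between the groups was not tested. The share is one of sorted CD45+ cells rather than of lung tissue.

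Set against the other H2-Aa-positive myeloid cells of the same library, the members showed a programme of chemokine, migration, ligand and NF-kB genes that could be read in each library on its own. At least 2-fold higher in both libraries, with both intervals away from 1, were 457 of 9159 genes (4.99%), and 1218 genes were at least 2-fold lower (13.3%). Because the rule chose the cells by their RNA, these contrasts are descriptions and carry no test. Of the other myeloid cells, 70.5% in PBS and 67.0% in DT held at least 10 UMIs of C1qa, C1qb, C1qc and Lyz2 together. Low values in the members are thus relative to a reference in which most cells held such RNA. A second reference, chosen after the data were seen, was the resting dendritic cell gate of 104 PBS and 100 DT cells, which hold at least 2 genes of Flt3, Kmo, Zbtb46, Cd209a, Xcr1, Clec9a, Itgae and Wdfy4, and no RNA of a set of macrophage and other genes such as C1qa, C1qb, C1qc, Siglech and Cd300c. Against it 308 of 4334 genes were higher (7.11%) and 533 lower (12.3%).

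**Figure D2:**
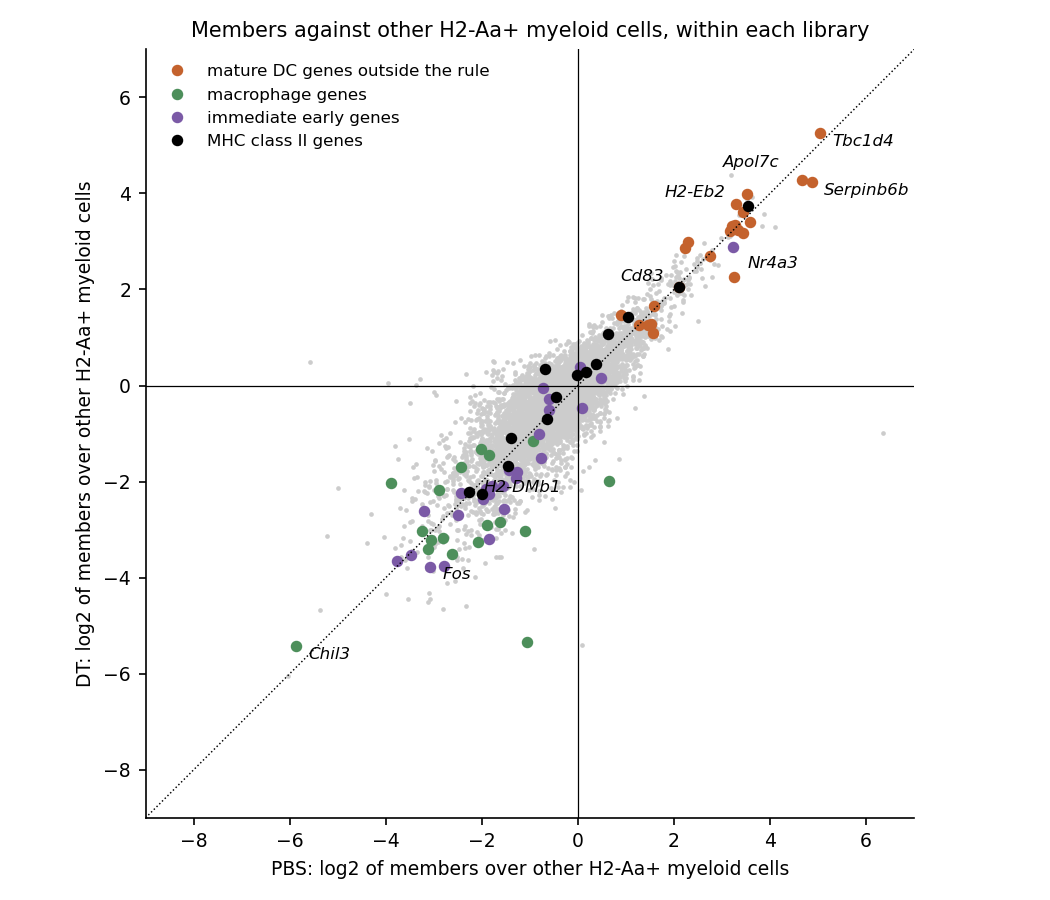
Log2 ratio of the members over other H2-Aa-positive myeloid cells in PBS (x axis) and DT (y axis), 1 point per gene outside the rule. Both levels had 5 CPM added. Grey points are genes with at least 100 UMIs in the higher population of each library. Coloured points are genes of lists with at least 50 UMIs in each library. Genes of mature dendritic cells lie at the upper right in both libraries, and most macrophage genes at the lower left.

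Ccl22 and Ccl17, which lie close together on chromosome 8 (GRCm38 chr8:94745590-94751699 and chr8:94810453-94812036, both on the plus strand), encode ligands of the same receptor. Ccl22, a gene of the rule, stood at 1016 CPM in PBS members and 1112 CPM in DT members, against 38.5 and 16.4 CPM in the other myeloid cells and 108 and 43.1 CPM in resting dendritic cells. Ccl17 stood at 798 and 889 CPM in the members, against 428 and 320 CPM in the other myeloid cells. In resting dendritic cells it was as abundant, at 1133 and 958 CPM. Ccl17 was found in 51.0% and 40.0% of resting dendritic cells, and Ccl22 in 22.1% and 17%. Ccl22 helped to choose the members and Ccl17 did not, so the contrasts of these genes are not set against each other.

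Ccl5 (chr11:83525778-83530518, minus strand), a chemokine that attracts T cells and NK cells, stood at 5768 CPM (PBS) and 3599 CPM (DT). Other myeloid cells held 526 and 392 CPM, so the members were 11.0-fold (10.4 to 11.5) and 9.18-fold (8.69 to 9.70) higher. Resting dendritic cells held 98.1 and 16.9 CPM. Ccl5 RNA was also found in 49.8% and 47.4% of T cells, which make this chemokine, against 90.2% and 85.9% of the members. The chemokines of inflammatory monocytes and macrophages went the other way. Ccl2, which recruits monocytes, was at 7.83 and 1.56 CPM against 145 and 138 CPM, although against resting dendritic cells it was not lower. Ccl4, an inflammatory chemokine, had no UMI in PBS members and 3 UMIs in DT members, against 202 and 240 CPM in the other myeloid cells, which is at least 34.3-fold lower in PBS when a floor of 3 counts over all members is used. Ccl24, an eosinophil chemokine, had 1 UMI in PBS members and none in DT members, against 449 and 326 CPM, at least 69.8-fold lower in DT. Of the 15 chemokines with at least 50 UMIs, 2 were higher in the members, Ccl5 and the rule gene Ccl22, and 9 were lower.

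The receptors showed the same exchange. Ccr7 (chr11:99144196-99155077, minus strand), a gene of the rule, stood at 1491 and 1842 CPM in the members against 34.3 and 12.2 CPM in the other myeloid cells. Gpr183, an oxysterol receptor that positions dendritic cells, was at 127 and 96.5 CPM against 38.5 CPM in both. The receptors of tissue recruitment were lower. Ccr2, which monocytes use to leave the blood, was at 47.0 and 35.8 CPM against 360 and 385 CPM. Ccr1 was at 19.6 and 24.9 CPM against 171 and 200 CPM. In all, 2 of 9 chemokine receptors were higher in the members, Gpr183 and the rule gene Ccr7, and 6 were lower.

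Genes of cell shape and movement accompanied Fscn1 (chr5:142960343-142973185, plus strand), which stood at 2589 and 1949 CPM. Marcksl1, a regulator of actin at the membrane, was at 928 and 778 CPM, 10.6-fold and 9.89-fold above the other myeloid cells, and its relative Marcks was 3.80-fold and 3.58-fold above them. Tbc1d4 (chr14:101442360-101609191, minus strand), which controls Rab GTPases in vesicle traffic, had the highest ratio among genes outside the rule, 45.2-fold in PBS and 54.4-fold in DT. Its level was 593 and 624 CPM against 13.1 and 11.5 CPM, so the groups of cells were far apart in both libraries. Of 20 cytoskeleton and migration genes, 8 were higher in the members, the rule gene Fscn1 among them, and 2 were lower.

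Most costimulatory genes, and some inhibitory ones, were higher in the members than in the other myeloid cells. Cd40, through which T cells license dendritic cells, stood at 204 and 171 CPM against 70.8 and 68.9 CPM in the other myeloid cells. Cd80, a ligand of CD28 and CTLA-4, stood at 68.5 and 71.6 CPM against 17.1 and 32.4 CPM, and its partner Cd86 at 252 and 204 CPM against 120 and 132 CPM, less than 2-fold higher in DT. Cd83, which keeps class II and CD86 at the surface, was 4.44-fold and 4.26-fold higher. On the inhibitory side, Cd274, which encodes PD-L1, stood at 268 and 244 CPM against 111 and 131 CPM, 2.42-fold (2.01 to 2.91) and 1.87-fold (1.57 to 2.21) higher. Pdcd1lg2, which encodes PD-L2, was at 108 and 125 CPM against 49.9 and 43.2 CPM. Cd200, whose receptor restrains myeloid cells, had the widest gap of these ligands, at 196 and 179 CPM against 13.5 and 9.97 CPM. All mice had received anti-PD-1, so these ligand levels are levels under that treatment. Of 10 costimulatory genes, 7 were at least 2-fold higher in both libraries. Of 15 inhibitory and tolerogenic genes, 4 were higher (Pdcd1lg2, Cd200, Fas and the rule gene Socs2) and 5 were lower (Socs3, Havcr2, Lgals9, Tgfb1 and Vsir). Il15 and its receptor chain Il15ra, which presents IL-15 to T cells and NK cells in trans, were 5.18-fold and 6.84-fold, and 8.47-fold and 7.79-fold, higher. Against resting dendritic cells, 4 of 8 costimulatory genes were higher (Cd40, Cd83, Icam1 and Tnfrsf4) and 1, Cd48, was lower. Of 11 inhibitory and tolerogenic genes, 3 were higher there (Cd274, Cd200 and the rule gene Socs2) and 3 were lower (Socs3, Havcr2 and Tgfb1).

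Of 20 NF-kB genes, 9 were higher in the members in both libraries (Relb, Nfkb2, Rel, Nfkbib, Traf1, Birc2, Birc3, Map3k14 and Cd40) and 1, Tnfaip2, was lower. Relb (chr7:19606217-19629438, minus strand) stood at 589 and 433 CPM against 57.0 and 38.0 CPM, 10.3-fold (8.88 to 12.0) and 11.4-fold (9.62 to 13.5) higher. Nfkb2 (chr19:46304320-46312385, plus strand), which encodes the p100 and p52 partner of RelB, was 3.24-fold and 3.99-fold higher, at 243 and 258 CPM. Map3k14, the kinase NIK that starts the noncanonical arm, was 4.57-fold and 7.54-fold higher. Traf1, an adaptor of TNF receptors, was 9.53-fold and 10.5-fold higher, and Birc2, the ubiquitin ligase that holds NIK in check, 10.0-fold and 10.6-fold higher. Of the canonical arm, Rel was 3.07-fold and 4.49-fold higher, and Nfkb1, the p50 gene, was within 2-fold of the other cells, at 241 and 293 CPM against 215 and 209 CPM.

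The promoter windows of Nfkb2 and of the 2 chemokine genes are shown. Nfkb2 is one of the NF-kB genes with raised RNA, and Ccl22 and Ccl17 are neighbouring genes often found in the same members. Each window is the 100 bases before the RefSeq start (GRCm38.p6, plus strand), 5′ to 3′, and capitals mark matches to the NF-kB consensus, read on both strands, with overlapping matches joined. The windows are chr19:46304637-46304736 for Nfkb2, chr8:94745584-94745683 for Ccl22 and chr8:94810353-94810452 for Ccl17.
Nfkb2: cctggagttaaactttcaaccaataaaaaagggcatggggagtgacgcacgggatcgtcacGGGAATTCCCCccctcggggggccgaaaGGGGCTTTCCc
Ccl22: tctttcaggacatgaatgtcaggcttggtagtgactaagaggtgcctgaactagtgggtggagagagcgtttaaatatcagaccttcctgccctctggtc
Ccl17: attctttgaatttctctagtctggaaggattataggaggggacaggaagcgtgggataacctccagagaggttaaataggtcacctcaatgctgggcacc

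Nfkb2 held matches from 39 to 29 bases and from 11 to 2 bases before its start, and neither chemokine window held one. The full RefSeq windows are longer than the 100 bases shown and run past the start (chr19:46304487-46304786 for Nfkb2). Across all 32851 full windows the consensus was found in 8.46%. The 27 genes with a window came from the rule and the mature dendritic cell list, with Nfkb2 added to them. Among their full windows the consensus was found in 4, namely Gpr132, Nfkb2, Spib and Tnfrsf9. The TATA letters TATAAA were found in 13.6% of all windows and in 3 of the 27 genes, Fscn1 among them, and the AP-1 letters TGANTCA were found in 7.81% and in 3 genes. A match says only that these letters are in the window.

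Survival, metabolic and transcription factor genes completed the programme. Serpinb9, an inhibitor of granzyme B, stood at 507 and 330 CPM against 37.6 and 26.6 CPM. Serpinb6b (chr13:32965209-32979067, plus strand), another intracellular serpin, was 34.1-fold and 22.2-fold higher, and Bcl2l14, of the Bcl-2 family, 19.6-fold and 13.2-fold. Bcl2 itself was lower, at 9.79 and 10.9 CPM against 51.5 and 60.8 CPM. Of 18 survival and death genes, 9 were higher. Pfkfb3, which makes the activator of phosphofructokinase, was 13.2-fold and 14.9-fold higher, the only one of 17 glycolysis genes to be so, and 6 were lower. Of 19 transcription factors of dendritic cells, 8 were higher (Batf3, Id2, Zbtb46, Spib, Relb, Stat5a, Etv3 and Nr4a3) and 2 were lower (Batf and Klf4). Batf3 was 4.46-fold and 4.39-fold and Etv3 7.21-fold and 6.54-fold higher, whereas Irf8 stood at 638 and 409 CPM against 463 and 374 CPM. The other genes with the highest ratios were Apol7c (36.8-fold and 30.9-fold), an apolipoprotein L family gene of dendritic cells, Ramp3 (21.7-fold and 16-fold), a receptor chaperone, Gnb4 (22.7-fold and 12.4-fold), a G protein beta subunit, Spint2 (14.1-fold and 18.1-fold), a protease inhibitor, Tspan3 (13.3-fold and 18.0-fold), Tmem123 (12.1-fold and 16.9-fold) and Samsn1 (10.4-fold and 14.9-fold).

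Class II antigen presentation was split between the complex and its loading machinery. H2-Aa, part of the choice of the other cells, stood at 5903 and 6118 CPM in the members against 5249 and 5020 CPM, and resting dendritic cells held 7554 and 7344 CPM. H2-Oa, a subunit of H2-O that restrains peptide loading, was at 74.4 and 90.3 CPM against 33.3 and 30.5 CPM, and H2-Eb2 at 106 and 96.5 CPM against 4.51 and 2.6 CPM. The loading genes were lower. H2-DMb1 was 4.92-fold and 4.74-fold lower, H2-DMa 2.65-fold and 2.15-fold, and Ctss, the protease that trims the invariant chain, 2.74-fold and 3.20-fold. March1, a ligase that removes class II from the surface, was at 13.7 and 9.34 CPM against 69.5 and 63.8 CPM. Cd74, the invariant chain, was close to even against the other myeloid cells, at 0.985-fold and 1.16-fold.

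Against the other myeloid cells, sensing, early response and lineage genes were the low side of the programme. Of 19 genes of Toll-like receptors and innate sensing, 8 were at least 2-fold lower in both libraries and none was higher. Among them Tlr2 was at 13.7 and 4.67 CPM against 106 and 101 CPM, and its adaptor Myd88 at 43.1 and 35.8 CPM against 108 and 106 CPM. Of 23 interferon-stimulated genes, 12 were lower and none was higher, and Isg15 was close to even at 1.23-fold and 0.769-fold. Of 26 immediate early and dissociation genes, 17 were lower and 1 was higher. Fos, an immediate early gene that tissue digestion can raise, was at 110 and 85.6 CPM against 964 and 1231 CPM, and Jun at 95.9 and 73.2 CPM against 392 and 395 CPM. Against resting dendritic cells, 1 of 4 sensing genes, 10 of 18 interferon-stimulated genes and 12 of 21 immediate early genes were lower. Higher there was 1 immediate early gene, Nr4a3.

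Of 18 macrophage genes 16 were lower than in the other myeloid cells. So were 10 of 12 monocyte genes, 14 of 18 genes of conventional type 2 and 11 of 16 of type 1 dendritic cells. Chil3, a chitinase-like gene of lung macrophages, was at 33.3 and 26.5 CPM against 2225 and 1353 CPM, and Ms4a6d at 29.4 and 24.9 CPM against 401 and 411 CPM. Itgam, the CD11b integrin, was at 5.87 and 10.9 CPM against 134 and 183 CPM, the transcription factor Klf4 at 3.91 and 3.11 CPM against 116 and 97.4 CPM, and the cytokine Osm at 3.91 and 10.9 CPM against 113 and 190 CPM. Cd209a, a lectin of monocyte-related and type 2 dendritic cells, and Cd93 had no UMI in any member of either library. Against the floor of 3 counts they were at least 12.8-fold and 20.7-fold, and at least 9.41-fold and 12.1-fold, lower than in the other myeloid cells. Against resting dendritic cells, 4 of 6 macrophage genes were higher (C1qa, C1qb, C1qc and Apoe) and 1 was lower. That gate excludes cells with C1qa, C1qb or C1qc RNA, so the direction of these 3 genes was fixed. Lower there were 3 of 6 monocyte, 9 of 14 type 2 and 9 of 11 type 1 genes, some of which chose the gate.

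Most members held few genes of either dendritic cell lineage. Xcr1, which marks type 1 dendritic cells, was found in 1 PBS and 0 DT members, and Clec9a in 2 and 2. Members were sorted by 7 type 1 genes (Xcr1, Clec9a, Wdfy4, Naaa, Cadm1, Itgae and Tlr3) and 7 type 2 genes (Cd209a, Clec10a, Mgl2, Ffar2, Sirpa, Itgam and Cd300a). At least 2 of the former and fewer than 2 of the latter were found in 2 and 3 members, and the reverse in 7 and 11. Both sets were found in 3 and 5 members, and 29 of 41 and 45 of 64 had neither. None of the 7 type 1 genes was found in 29 and 46 members, and none of the 7 type 2 genes in 17 and 27. Any gene of the longer type 1 list, which also holds genes shared with other cells such as Batf3 and Irf8, was found in 40 and 63 members, and any of the longer type 2 list in 36 and 47.

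Among the members, levels varied widely from cell to cell. Per 10000 UMIs of a cell, Fscn1 had a median of 27.1 in PBS and 20.4 in DT members, Ccr7 of 14.0 and 19.1, and Ccl5 of 22.7 and 27.5. Ccl22 had medians of 7.26 and 5.71, and Ccl17 of 2.96 and 2.77. The median of Ccl5 was thus slightly higher in DT, whereas its sum was higher in PBS, where the upper quartile was 109 against 69.8 in DT.

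Members with Ccl17 mostly held Ccl22 too. Ccl22 is a gene of the rule and was found in 80.5% and 81.2% of all members. The overlap that this frequency alone would give was not worked out. Both were found in 27 of 41 and 38 of 64 members, Ccl22 alone in 6 and 14, Ccl17 alone in 0 and 3, and neither in 8 and 9. With each cell thinned to 2000 UMIs, Spearman's rho between their counts was 0.36 over 40 PBS cells and 0.58 over 60 DT cells. For Fscn1 and Ccr7, both of the rule, it was 0.27 and 0.46. Ccl5 followed Fscn1 (0.30 and 0.48) but was near 0 against Ccl17 (0.13 and -0.07). Cells of a library share their preparation, so these are descriptions of the 2 libraries. Il12b, a subunit of IL-12 and IL-23, was held by few cells. It was found in 6 members of each library, and a single cell held 61.1% of its UMIs in PBS and 64.3% in DT.

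**Figure D3:**
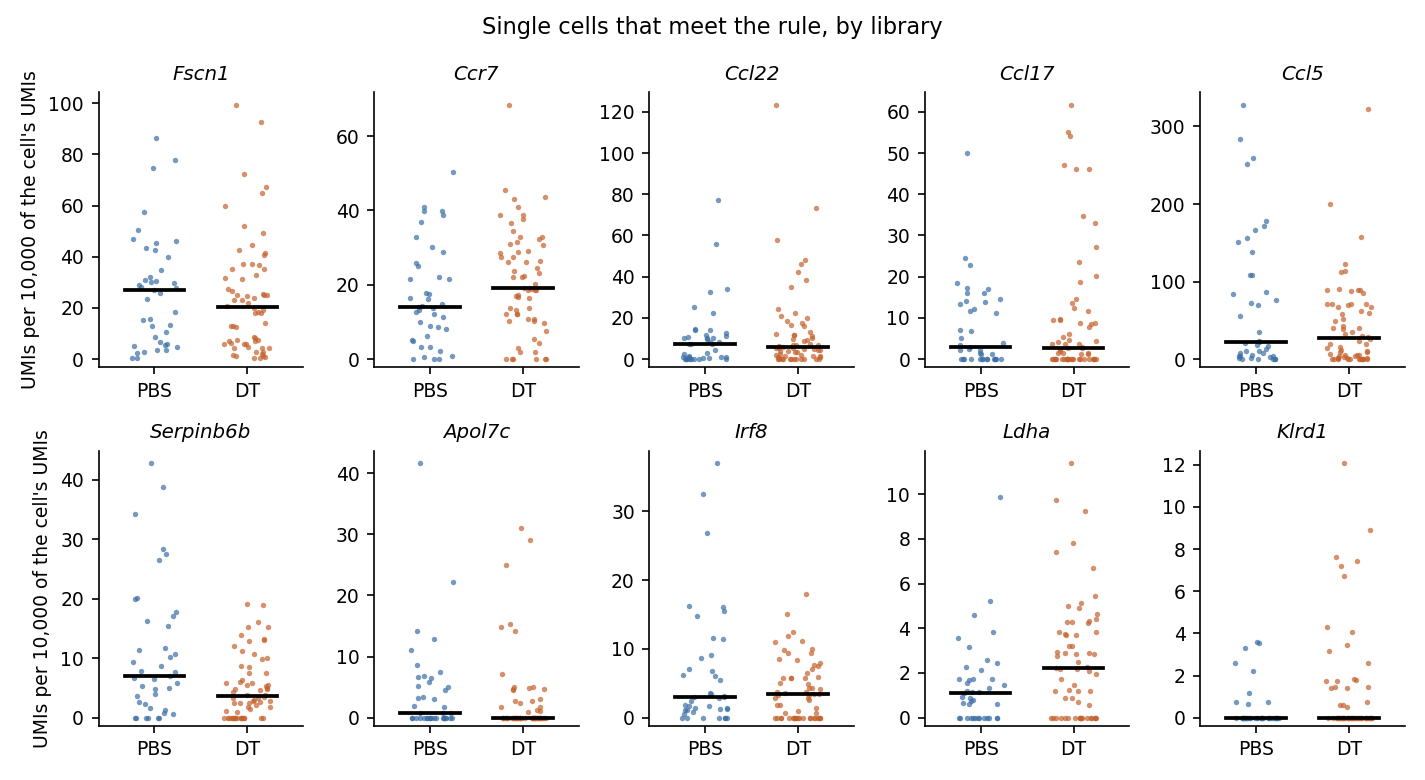
UMIs per 10000 UMIs of the cell (y axis) for 10 genes in each PBS member (blue) and each DT member (orange), 1 point per cell, with the median as a black line. Points of the 2 libraries overlap for every gene, and Klrd1 and Apol7c are at or near 0 in many cells.

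Between DT and PBS, the genes of the rule were not all alike, with 2 of 7 above even and 5 below, and a median log2 ratio of -0.41. Ccr7 stood at 1842 CPM in DT and 1491 CPM in PBS (ratio 1.24, 1.13 to 1.35), Ccl22 at a ratio of 1.09 (0.976 to 1.23) and Ccl17 at 1.11 (0.979 to 1.27). Cacnb3 had a ratio of 0.919. Below even were Fscn1, with a ratio of 0.753 (0.696 to 0.814), Socs2 with 0.704 and Nudt17 with 0.693, all short of 1.5-fold. Zmynd15 stood at 503 CPM (PBS) and 299 CPM (DT), a ratio of 0.594 (0.490 to 0.719) past 1.5-fold, and at 0.585 without the mixed cells. These genes chose the cells, so their values are a description. Outside the rule, Cd274 had a ratio of 0.912 (0.720 to 1.16), H2-Aa of 1.04 (0.988 to 1.09), Nfkb2 of 1.06 (0.839 to 1.35) and Relb of 0.735 (0.622 to 0.868). Cd80, Cd86 and Cd40 had ratios of 1.04, 0.808 and 0.841.

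A gene was counted as different when the ratio was at least 1.5-fold either way, its interval excluded 1 and the members of both libraries together held at least 50 UMIs of it. Of 3005 genes with that many UMIs, 240 were counted (7.99%), 142 as higher in DT (4.73%) and 98 as lower (3.26%). With trimmed-mean scaling the counts were 111 and 128, and with median-of-ratios scaling 114 and 121, so that which side has more genes depends on the scaling. Without the members that carried RNA of another lineage, 93 of 2472 genes were higher (3.76%) and 72 lower (2.91%), and 63 and 50 of these were among the 142 and 98. A single cell often held much of a gene. When the cell with most UMIs of each gene was left out as a further condition, 61 higher and 41 lower genes passed all 3 readings, and 3 and 6 also passed after thinning every cell to 2000 UMIs. In the other H2-Aa-positive myeloid cells 285 of 11008 genes were counted as higher in DT (2.59%) and 411 as lower (3.73%), and whether the members differed from them in their response was not tested.

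**Figure D4:**
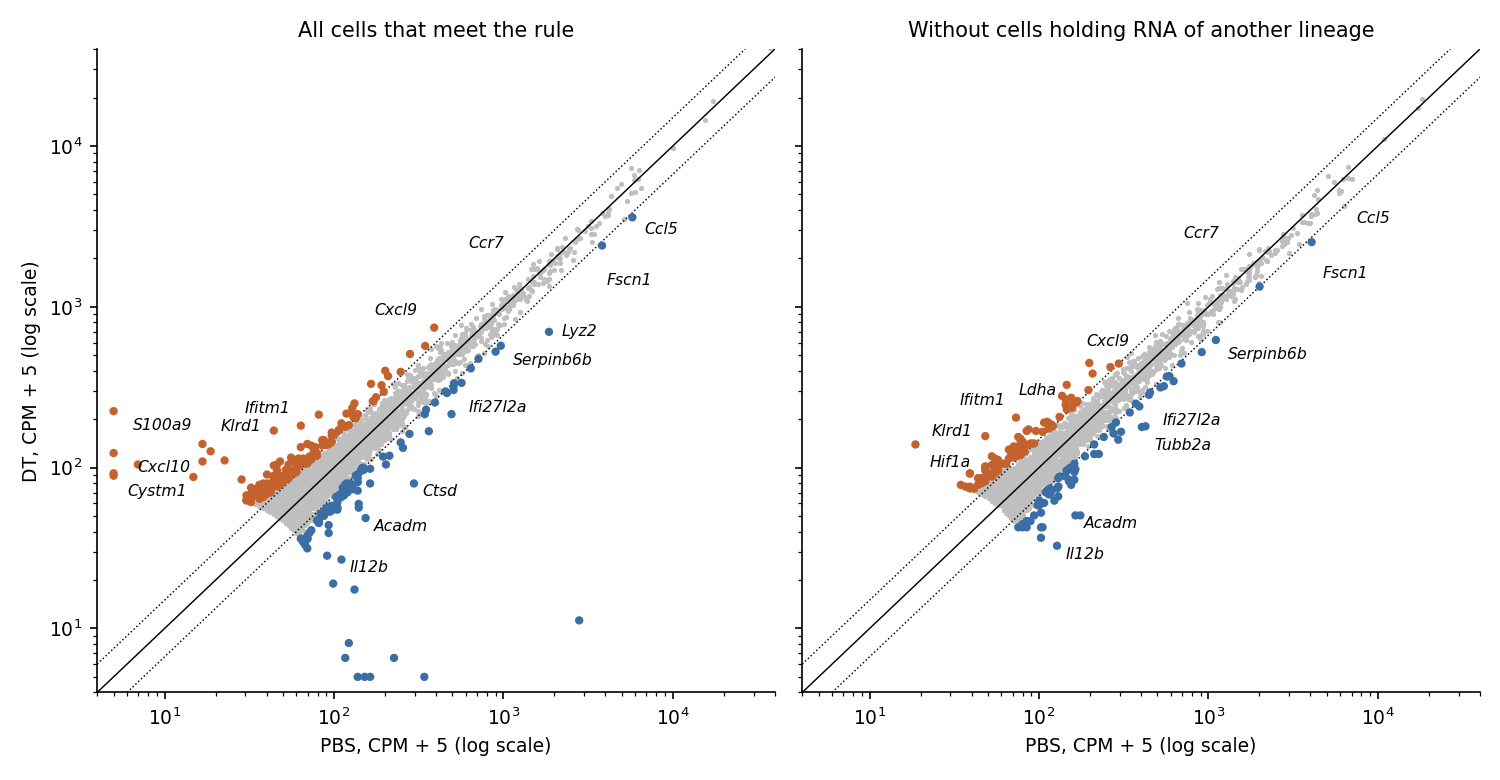
Summed expression in PBS members (x axis) and DT members (y axis), in CPM with 5 added on log axes, 1 point per gene with at least 50 UMIs, for all members (left) and without members that carry RNA of another lineage (right). Orange points are counted as higher in DT and blue points as lower, dotted lines mark 1.5-fold, and 142 and 98 genes on the left become 93 and 72 on the right.

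On the low side, Serpinb6b, Gnb4 and Ifi27l2a differed in every reading. Serpinb6b stood at 961 CPM (PBS) and 568 CPM (DT), a ratio of 0.591 (0.515 to 0.678), and at 0.560 without the mixed cells. It was found in 85.4% and 75% of the members, with medians of 7.00 and 3.68 UMIs per 10000, while in the other myeloid cells its ratio was 0.906. Gnb4 (chr3:32580332-32616585, minus strand) stood at 339 and 210 CPM, a ratio of 0.621 (0.492 to 0.782), against 1.13 in the other myeloid cells. Ifi27l2a (chr12:103442167-103443680, minus strand), an interferon-stimulated gene, stood at 489 CPM (PBS) and 210 CPM (DT), a ratio of 0.429 (0.346 to 0.532). It was found in 61.0% of PBS and 31.2% of DT members, and its ratio in the other myeloid cells was 1.01. In the 4 readings named above these genes were counted as lower each time. Serpinb6b, Ifi27l2a, Apol7c, Tubb2a and Eno1 have close relatives in the mouse genome, and how reads shared between copies were assigned is not known here, so their values are less certain.

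Ccl5 had a ratio of 0.624 (0.591 to 0.659) and 0.670 without the mixed cells, the latter short of 1.5-fold, and in the other myeloid cells it was 0.745. Apol7c (chr15:77524852-77533316, minus strand) stood at 390 and 249 CPM (0.640, 0.516 to 0.791), and Serpinb9 at 507 and 330 CPM (0.651). Irf8 (chr8:120736358-120756694, plus strand), a transcription factor of type 1 dendritic cells, stood at 638 and 409 CPM (0.642). Without the single cell with most of their UMIs, Apol7c and Irf8 were no longer counted, and the median of Irf8 per 10000 UMIs was 2.96 in PBS and 3.38 in DT. Isg15 and Irf7, the interferon-stimulated genes counted as lower on a list of which 8 of 13 genes were above even, had ratios of 0.651 and 0.536, against 1.04 and 0.999 in the other myeloid cells. Isg15 was even after thinning, and Irf7 was not counted without its top cell.

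Other named genes on the low side have varied roles. Acadm, an acyl-CoA dehydrogenase, stood at 149 and 43.6 CPM (0.293, 0.183 to 0.457) and was found in 63.4% of PBS and 25% of DT members. Etfa, the electron carrier that takes electrons from such enzymes, had a ratio of 0.442, and 0.324 without the mixed cells. Tubb2a, a beta tubulin, stood at 358 and 164 CPM (0.456), Rab2a, of transport between endoplasmic reticulum and Golgi, at 158 and 74.7 CPM (0.471), and Dnajc1, a chaperone of the endoplasmic reticulum, had a ratio of 0.389. Tnfrsf4, which encodes OX40, was at 190 and 112 CPM (0.590), and Nfkbie, an inhibitor of NF-kB, had a ratio of 0.573. All 7 were counted as lower without the mixed cells too. Vim had a ratio of 0.628, with 32.3% of its PBS UMIs in 1 cell, and its medians were alike at 17.5 and 17.1 per 10000 UMIs. Il12b had a ratio of 0.206 from the few cells given above.

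On the high side, Klrd1 (chr6:129591782-129598775, plus strand), which encodes the CD94 lectin of NK cells and some dendritic cells, stood at 39.1 CPM (PBS) and 165 CPM (DT), a ratio of 4.22 (2.6 to 7.18). It was found in 22.0% and 35.9% of the members, kept a ratio of 3.53 without the mixed cells and was at 0.935 in the other myeloid cells. The 10 genes of the NK cell list, which does not hold Klrd1, summed to 157 CPM in PBS and 484 CPM in DT members, from 0 to 9.21 and from 0 to 82.7 UMIs per 10000 in a cell. Ncr1, Klra8, Gzma, Gzmb, Prf1, Nkg7 and Eomes were at 0 in PBS and none of the 10 was at 0 in DT. Gzma and Nkg7 are part of the definition of the mixed cells, and without those cells 1 of the 10 genes reached 20 UMIs. The part of NK cell RNA in the Klrd1 ratio was not tested. Ifitm1, an interferon-induced membrane protein, was at 58.7 and 178 CPM (3.02, 2.01 to 4.68), but it was found in only 19.5% and 20.3% of the members and was also higher in the other myeloid cells, at 1.64.

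Malt1, the protease of the CARD9 and BCL10 signalling complex that feeds NF-kB, was chosen after its values were seen because its difference was counted in each of the 4 readings, as was that of only 2 other genes on the high side, Mkrn1 and Pdcd4. It stood at 196 CPM (PBS) and 395 CPM (DT), a ratio of 2.02 (1.6 to 2.57), or 2.29 without the mixed cells. It was found in 73.2% and 79.7% of the members, and the ratio in the other myeloid cells was 1.12. Zfand5 and Cyb5b each had a ratio of 2.42, and Ppp1r14b one of 2.73 that fell to 1.74 without the mixed cells. Bcl2l11, which encodes the death-promoting BIM, had a ratio of 2.01, and Socs1, a brake on cytokine signalling, one of 1.96 that fell to 1.59 and was not counted without the mixed cells.

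Genes of glycolysis leaned to the high side. Hif1a (chr12:73901375-73947530, plus strand), the oxygen-regulated factor that drives this pathway, stood at 58.7 and 129 CPM (2.2, 1.43 to 3.46), Ldha (chr7:46841475-46855627, plus strand), which makes lactate, at 186 and 321 CPM (1.73, 1.35 to 2.22), and Eno1, an enolase, at 95.9 and 157 CPM (1.64, 1.15 to 2.36). These 3 were the glycolysis genes counted as higher, of 10 with at least 50 UMIs, where 4.73% of all genes were. Without the mixed cells all 3 were counted as well, at 2.24, 1.6 and 1.87, again of 10, where 3.76% of all genes were. Of 14 glycolysis genes with at least 20 UMIs, 12 had a ratio above 1, with a median log2 of 0.29, where 56.2% of all genes with that many UMIs had one, with a median of 0.06. In the other myeloid cells 19 of 20 glycolysis genes were above 1, with a median of 0.23, so the lean was not confined to the members. Transcripts of the mitochondrial genome were above 1 in 9 of 9 genes, with a median of 0.20, against 5 of 9 and a median of 0.00 in the other myeloid cells, and this difference between the cell groups was not tested.

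**Figure D5:**
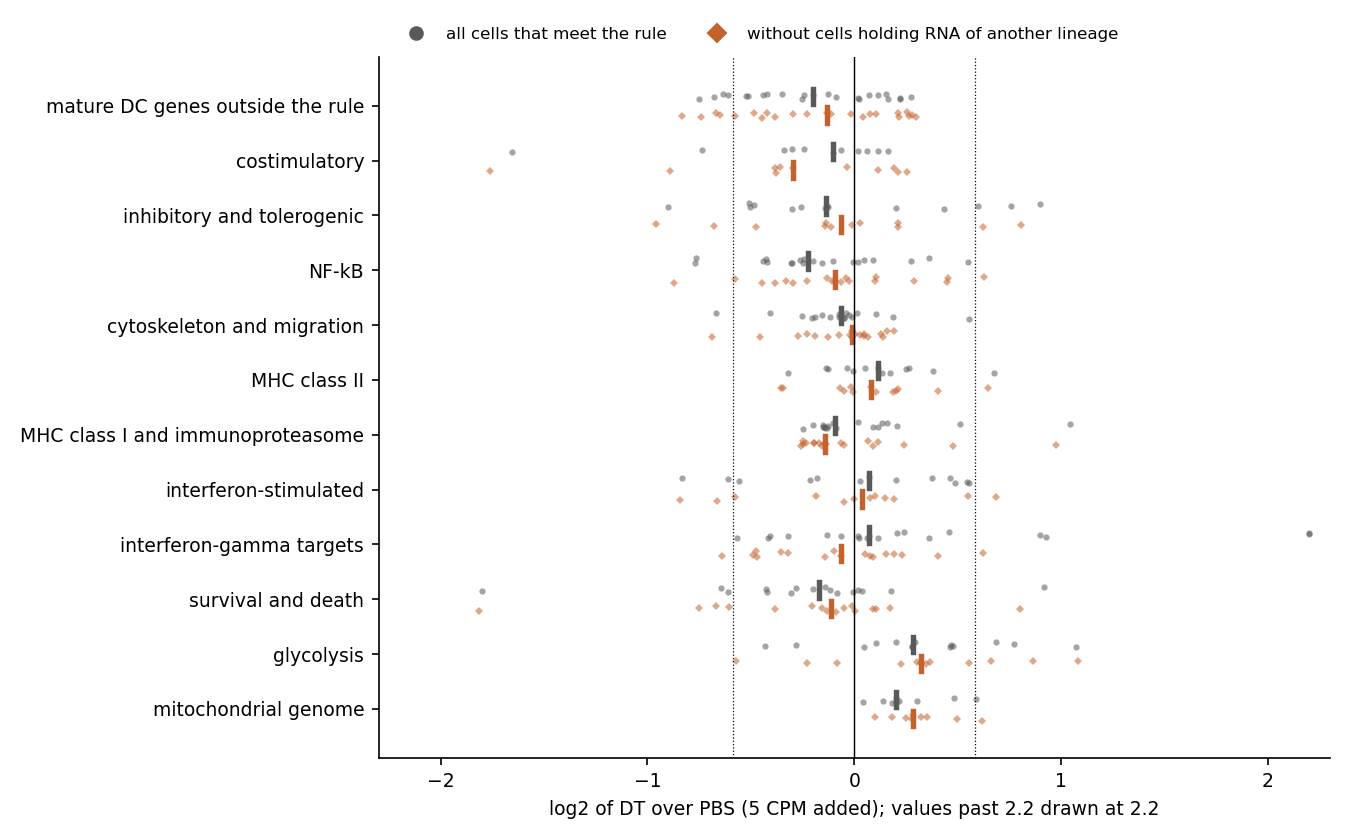
Log2 ratio of DT over PBS (x axis) for each gene with at least 20 UMIs in 12 gene lists, in all members (grey circles) and without members that carry RNA of another lineage (orange diamonds), with the medians as bars, dotted lines at 1.5-fold and values past 2.2 drawn at 2.2. Medians run near 0 for most lists, and glycolysis and the mitochondrial genome lie above 0 in both readings.

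Among lists of the mature state, antigen presentation and interferon response, medians were between -0.22 and 0.11. The 23 mature dendritic cell genes outside the rule had a median log2 of -0.20 (-0.13 without the mixed cells). Of these 23, 9 were above 0, where 56.2% of all genes were. Counted as lower were 4 of the 23, Ccl5, Apol7c, Serpinb6b and Serpinb9, where 3.26% of all genes were. Without the mixed cells the 4 were Apol7c, Serpinb6b, Serpinb9 and Spib, where 2.91% of all genes were counted as lower. NF-kB genes had a median of -0.22 over 20 genes and -0.09 over 19 without the mixed cells. Medians below 0 were found for costimulatory genes (-0.10 over 11), inhibitory genes (-0.14 over 14) and cytoskeleton genes (-0.06 over 19). The same held for class I genes (-0.10 over 18) and survival genes (-0.17 over 16). Class II genes (0.11 over 13) and interferon-stimulated genes (0.07 over 13) were close to the median of all genes with at least 20 UMIs, 0.06. Targets of interferon-gamma had a median of 0.07. Of 15 such targets with 50 UMIs, Cxcl9, Cxcl10 and Socs1 were counted as higher, where 4.73% of all genes were. Without the mixed cells the median of these targets was -0.06, with no gene counted as higher and 1, Irf1, counted as lower. Of 11 p53 targets with at least 20 UMIs, 7 had the 50 UMIs needed to be counted. The radiation-responsive Cdkn1a, Mdm2 and Phlda3 were counted as lower in DT, where 3.26% of all genes were. Without the mixed cells none of them was counted, and 1 p53 target, Ccng1, was counted as higher. In the other myeloid cells Phlda3 was counted as lower too (0.662), and Cdkn1a and Mdm2 were not. The T cell list had no gene with 20 UMIs.

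Some of the largest ratios belonged to genes held mostly by 1 cell or used to define the mixed cells. S100a9, an alarmin of neutrophils, stood at 11.7 CPM (PBS) and 135 CPM (DT), with 81.6% of its DT UMIs in 1 cell. S100a8 and S100a9 are part of the definition of the mixed cells, so leaving those cells out fixes that their levels fall. Cxcl10 had 67.2% of its DT UMIs in 1 cell. Ctsd, a lysosomal protease, Lyz2, lysozyme, Cd68, a lysosomal glycoprotein, and C3, a complement component, were among the lowest ratios, and without the mixed cells, which Lyz2 also defines, the ratios of Ctsd, Lyz2 and C3 were 1.04, 0.812 and 2.90. The stromal genes Col1a1, Col3a1, Sparc and Mgp were counted as lower and the keratins Krt8 and Krt18 as higher, and Col1a1, Col3a1, Krt8 and Krt18 are likewise part of that definition, met by 1 PBS member with fibroblast RNA and 2 DT members with keratin RNA. Fcgr3, Selenoh, Cystm1, Msmo1 and Zmiz1 complete the genes with the largest ratios. The X-linked Xist was 8.86-fold higher in DT members and 7.94-fold higher in the other DT myeloid cells.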

How the data were processed

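Single-cell 3′ RNA profiles of sorted CD45+ lung cells were analysed from 1 library per group. Per the submitters' processing notes, Partek, STAR, Seurat and the mouse build mm10 were used. Aligner settings were not given in the sources used here, nor was a doublet filter. Per cell and gene, the authors deposited log2(CPM + 1), a unit checked from the values. The design written beforehand had assumed counts. The log was undone and each value divided by the smallest step of its cell, which gave whole UMIs for 100% of the values above 0, within 1%. UMIs were summed over the members of a library and scaled to CPM. Log2 ratios had 5 CPM added. Intervals are exact, conditional binomial for ratios and Clopper-Pearson for shares, at 95%. The calculations used Python 3.11.15, numpy 2.4.6, scipy 1.17.1 and pandas 2.3.3. The gene counting was tested on simulated counts drawn around 1 pooled profile, with counting error only and no variation between cells. That simulation therefore cannot show how the counting handles genes held mostly by 1 cell. Thinning drew UMIs without replacement.

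The genes named for DT against PBS are the 12 highest and 12 lowest ratios past 1.5-fold with at least 50 UMIs and UMIs in at least 10% of the cells of 1 library, without sex-linked, receptor, haemoglobin, mitochondrial, ribosomal and epithelial genes. Against other cells they are the 15 highest and 10 lowest with at least 100 UMIs, plus members of the 36 gene lists. The members, the rule and the lists were chosen with earlier results of these data known. Gene coordinates are Gencode (GRCm38) and promoter windows RefSeq (GRCm38.p6). Alternatives varied the rule, the reference cells, the scaling, the UMI minimum, the CPM added and the depth. The design has no replicate, so no library could be left out. Single results for some genes are not reported here.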

Additional observations from a re-analysis of the deposited data

How the results depend on the processing

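The share of members in DT over PBS was 1.32 to 1.51 in every setting except cells called male, 0.606. The 142 higher genes became 93 without members with RNA of another lineage, 14 after thinning to 2000 UMIs, and 267, 57 and 396 with a minimum of 20 UMIs, 100 UMIs and none. The 98 lower genes became 21 after thinning, 57 without the cell with most UMIs of a gene, and 187, 51 and 301 with those minimums. Thinning leaves 595 genes to test. Of the DT over PBS log2 ratios, S100a8 turned to -0.31 without mixed cells and -0.042 when the deposited log2 values were averaged over cells, a scale on which the median of all genes was -0.36 and Vim turned to 0.44. Ctsd turned to 0.21 with a stricter exclusion, 0.80 without the 10% of cells with most UMIs and 0.052 without mixed cells. C3 turned to 0.092 with at least 3 further genes, to 1.11, 1.48 and 1.07 under the same 3 settings as Ctsd, and to 0.22 without its top cell. Isg15 turned to 0.051 without the deepest 10% and 0.00 thinned. List medians turned to 0.57 (cytokines, thinned), 0.053 (lipid and lysosome, without the deepest 10%), -0.045 (neutrophil genes, without mixed cells) and 0.00 (stromal RNA, without the deepest 10%). The cause was not tested.

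Of the members against other cells, log2 ratios against resting dendritic cells turned for Chil3 in DT (1.53), Ccl2 (0.69 in PBS, 0.17 in DT), Ccl17 (-0.50, -0.11), H2-Aa (-0.36, -0.26), Lyz2 (0.59, 0.28), Cd74 in DT (-0.37) and Cst3 in DT (-0.29). Against a type 2 gate they turned for Ccl17 in PBS (-0.51), H2-Aa (-0.32, -0.12), Cd74 in DT (-0.23) and Isg15 in DT (0.17), and against a type 1 gate for H2-Aa in PBS (-0.055) and Cd74 in DT (-0.045). Both gates held macrophage RNA. Thinning turned Irf4 (-0.067) and Isg15 (-0.33) in PBS. Of the remaining settings of single genes and lists, 2122 stayed within the interval of the main value and 604 moved outside it. A turn was recorded only where the main result was counted or its interval excluded no change. Other results among these settings may therefore also have changed direction. Single-gene values within cells called male or female were not run, since fewer than 20 members remained in 1 library of each comparison (6 male-called in DT, 4 female-called in PBS). No paired analysis was possible because each group has 1 library.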
